A study of Mus musculus with 7 samples.

Results

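The genes described here encode the calcium and potassium channels of the vascular wall. They are 10 named genes of 55487 in the deposited tables: Cacna1c, Cacna1d and Cacna1h, which encode pore subunits of voltage-gated calcium channels; Cacna2d1 and Cacnb2, accessory subunits of the same channels; Kcnma1 and Kcnmb1, the pore and the β subunit of the large-conductance calcium-activated potassium (BK) channel; Kcnj8 and Abcc9, the pore and the sulfonylurea receptor subunit of the vascular ATP-sensitive potassium (KATP) channel; and Ryr2, a ryanodine receptor. They were chosen by name as a family. All 10 were among the 15688 genes with enough counts for a test. Each library held RNA from the thoracic aorta, with all its cell layers, of 1 mouse, a C57BL/6 male aged 7 weeks. Col3a1+/G182R mice (n = 3) carry 1 knock-in Col3a1 allele that puts an arginine in place of a glycine of the type III collagen triple helix, in every cell, and are a model of vascular Ehlers-Danlos syndrome. Wild-type Col3a1+/+ mice (n = 4) were the controls. No treatment is named for either genotype, and the relation between the mice is not given.

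In arterial smooth muscle, depolarization opens L-type calcium channels, and the calcium that enters drives contraction. Ryanodine receptors release further calcium from the sarcoplasmic reticulum, and the release events next to the membrane open BK channels, which hyperpolarize the cell and oppose the contraction. KATP channels open when cellular ATP is low or under vasodilator signals, and close under vasoconstrictor signals. Dihydropyridines such as amlodipine, which the study gave to other Col3a1+/G182R mice, block the L-type pore.

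Total expected counts per library were 18820015 to 23953746 in Col3a1+/G182R and 13693861 to 21634680 in Col3a1+/+. Smooth muscle markers were abundant in each library, with a summed level of 24094 to 25827 TPM over 8 genes in Col3a1+/G182R and 17633 to 28756 TPM in Col3a1+/+. The lowest sum was that of Col3a1+/+ replicate 4, which also had the highest endothelial sum of the 7 libraries (539 TPM over 9 genes). Cardiac muscle markers (11 genes) summed to 33.1 to 34.7 TPM in Col3a1+/G182R and 45.6 to 148 TPM in Col3a1+/+, with no overlap. Of these, the cardiac myosin heavy chain gene Myh6 had 0.45, 0.93 and 0.01 TPM in Col3a1+/G182R, against 16.2, 12.8, 2.38 and 1.67 TPM in Col3a1+/+. Myl7 had 0.41, 0.5 and 0 TPM in Col3a1+/G182R, against 25.6, 10.3, 0 and 0 TPM in Col3a1+/+. The largest markers of Col3a1+/+ replicates 3 and 4 were Myl4 (18.5 and 16.3 TPM) and Tnni3 (11.9 and 17.9 TPM). These averaged 14.2 and 7.69 TPM in Col3a1+/G182R. Of the 6 cardiac markers tested, 5 were measured lower in Col3a1+/G182R and 1 (Myh7, log2 fold change 0.12) higher. Skeletal muscle markers (9 genes) summed to 8.75 to 14.1 TPM in Col3a1+/G182R and 16.6 to 25.9 TPM in Col3a1+/+, again with no overlap. The defining myosin gene Myh4 was at 0 in all 7 libraries, while Tnnt3 averaged 5.19 TPM in Col3a1+/G182R and 8.01 TPM in Col3a1+/+. The 4 skeletal muscle markers with enough counts for a test were all measured lower in Col3a1+/G182R. Acta1, with too few counts, averaged 0.427 TPM in Col3a1+/G182R and 0.28 TPM in Col3a1+/+. Adventitial fibroblast markers (7 genes) summed to 1139 to 1575 TPM in Col3a1+/G182R and 536 to 1508 TPM in Col3a1+/+, where replicate 1 was highest. All 7 were measured higher in Col3a1+/G182R, with a median log2 fold change of 0.42. Of these, 3 had an unadjusted edgeR p under 0.05, where 9.57% of all genes tested did on the higher side. Macrophage markers (6 genes), all measured higher, summed to 143 to 411 TPM in Col3a1+/G182R and 105 to 169 TPM in Col3a1+/+.

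No channel gene differed between genotypes past the threshold. With edgeR's quasi-likelihood test and Benjamini-Hochberg adjustment over all genes, 0 of the 10 had an adjusted p under 0.05, where 0.0382% of all genes tested did. DESeq2 called 0 of the 10 as well, against 4.52% of the genes it tested, and so did edgeR with effective length per library as an offset (0.0892%). The edgeR adjusted p-values of the 10 ran from 0.176 to 0.918 and their log2 fold changes, Col3a1+/G182R over Col3a1+/+, from -0.36 to 0.44. Of the 10 genes, 6 were measured higher and 4 lower, with a median log2 fold change of 0.03, beside 0.01 over all genes tested. An unadjusted p under 0.05 was reached by 1 of the 10 (Abcc9), where 20.4% of all genes tested reached it (9.57% on the higher and 10.8% on the lower side). In bulk tissue, fewer cells of a type and less RNA per cell cannot be told apart, and this holds for each value that follows.

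Ordered by level per length, Kcnmb1 led both genotypes, with 103 ± 4.31 TPM (SD, n = 3) in Col3a1+/G182R and 97.8 ± 18.9 TPM (SD, n = 4) in Col3a1+/+. TPM divides by transcript length, so that genes can be set beside each other. Abcc9 came second, with 52.0 ± 3.18 TPM in Col3a1+/G182R and 37.3 ± 6.98 TPM in Col3a1+/+, where its range overlapped that of Kcnj8 and it was above Kcnj8 in 3 of 4 libraries. Cacna2d1 and Kcnj8 followed. Cacna2d1 was above Kcnj8 in 3 of 3 Col3a1+/G182R libraries, whereas in Col3a1+/+ the pair overlapped and Kcnj8 was above Cacna2d1 in 1 of 4. Cacnb2, Cacna1c, Kcnma1 and Ryr2 formed a middle group with means of 10.9 to 14.2 TPM in Col3a1+/G182R and 7.39 to 14.2 TPM in Col3a1+/+, and within each genotype, each overlapped the gene next to it in order of mean TPM. Cacna1d had 5.67 ± 1.48 TPM in Col3a1+/G182R and 7.26 ± 2.05 TPM in Col3a1+/+, and there its range overlapped that of Kcnma1. Cacna1h was the lowest, at 0.530 ± 0.336 TPM in Col3a1+/G182R and 0.460 ± 0.238 TPM in Col3a1+/+, a level above that of only 4.67% of the genes tested.

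**Figure D1:**
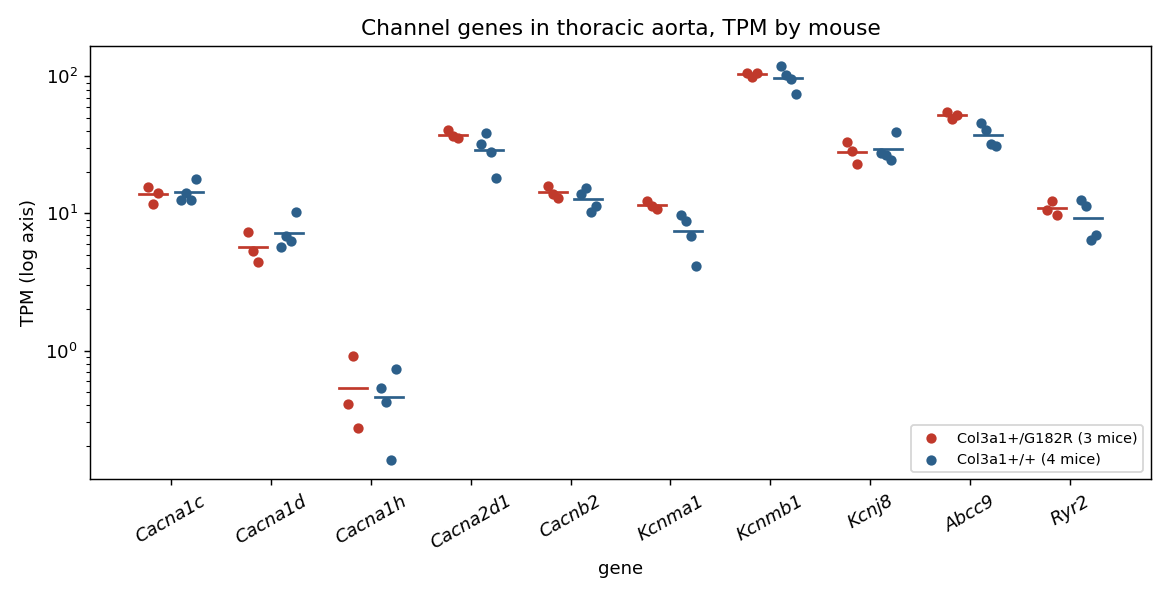
TPM of the 10 channel genes in each library, on a log axis, with a bar at the mean of each genotype (red, Col3a1+/G182R, 3 mice; blue, Col3a1+/+, 4 mice). The genotypes do not overlap for Abcc9 and Kcnma1 and overlap for the other 8 genes.

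The pore of the arterial L-type channel is encoded by Cacna1c (ENSMUSG00000051331), which lies on the minus strand of chromosome 6 of build GRCm38, from 118587240 to 119196418. Its level was 15.6, 11.8 and 14.01 TPM in Col3a1+/G182R, against 12.6, 14.03, 12.4 and 17.8 TPM in Col3a1+/+. Among the normalized counts, 109.8, 85.4 and 88.7 CPM in Col3a1+/G182R stood beside 86.9, 109.0, 109.1 and 128.7 CPM in Col3a1+/+. The genotypes overlapped on both scales, with Col3a1+/+ replicate 4 the highest library. The log2 fold change was -0.20 (SE 0.157, edgeR adjusted p = 0.485). Cacna1c made up 56.5 ± 0.527% of the summed TPM of the 10 α1 pore genes in Col3a1+/G182R (SD, n = 3) and 54.5 ± 3.76% in Col3a1+/+ (SD, n = 4), a difference of 2.08 percentage points (p = 0.429 in a two-sided exact permutation test, adjusted to 0.457 for 6 subunit ratios and shares).

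Cacna1d (ENSMUSG00000015968) encodes a further L-type pore, known from pacemaker and neuroendocrine cells. It lies on the minus strand of chromosome 14, from 30039939 to 30491455. Its TPM was 7.29, 5.32 and 4.39 in Col3a1+/G182R, against 5.70, 6.81, 6.25 and 10.3 in Col3a1+/+. As with Cacna1c, Col3a1+/+ replicate 4 was the highest library, and the genotypes overlapped. The log2 fold change of the counts was -0.27 (SE 0.199, edgeR adjusted p = 0.445), and it was -0.11 without Col3a1+/+ replicate 4. Exons of Cacna1d overlap those of Chdh on the opposite strand, a gene with a mean of 7.24 CPM. Whether counting used strand is not given.

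Cacna1h (ENSMUSG00000024112; chromosome 17, 25374285 to 25433783, minus strand) encodes a T-type pore, which opens at more negative voltages than the L-type pores. Its expected counts were 53, 33.6 and 26.05 in Col3a1+/G182R and 56, 24, 16.6 and 57.6 in Col3a1+/+. The genotypes overlapped in full. At this depth a log2 fold change of -0.36 had an SE of 0.464 (edgeR adjusted p = 0.667), and its sign turned without Col3a1+/+ replicate 4 (0.026) and with effective length as an offset (0.14). Its estimated transcript length ran from 2265 to 8230 bases among the 3 Col3a1+/G182R libraries alone.

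Of the accessory subunits, Cacna2d1 encodes the α2δ protein that brings the channel to the membrane and binds gabapentin. The gene (ENSMUSG00000040118) lies on the plus strand of chromosome 5, from 15934691 to 16374511. Its TPM was 40.3, 36.7 and 35.6 in Col3a1+/G182R, against 32.2, 38.4, 28.1 and 18.2 in Col3a1+/+. Only Col3a1+/+ replicate 2 reached the range of Col3a1+/G182R, and replicate 4 was the lowest of all 7 libraries. The log2 fold change was 0.37 (SE 0.233, edgeR adjusted p = 0.375), and 0.19 without Col3a1+/+ replicate 4. Cacna2d1 held 95.7 ± 1.17% of the TPM of the 4 α2δ genes in Col3a1+/G182R and 96.5 ± 1.05% in Col3a1+/+ (exact permutation p = 0.371, adjusted 0.457), so that 1 gene supplied nearly all of this subunit's RNA in each library.

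Cacnb2 (ENSMUSG00000057914; chromosome 2, 14603088 to 14987908, plus strand) encodes a cytosolic β subunit, which promotes surface expression of the pore. Its TPM was 15.95, 13.9 and 12.9 in Col3a1+/G182R, against 13.8, 15.2, 10.2 and 11.4 in Col3a1+/+. The ranges overlapped, and the log2 fold change was 0.11 (SE 0.149, edgeR adjusted p = 0.672). Cacnb2 was not the leading β gene of these aortas, since Cacnb3 had 25.3 TPM in Col3a1+/G182R and 31.5 TPM in Col3a1+/+. The share of Cacnb2 in the 4 β genes was 30.02, 32.8 and 29.1% in Col3a1+/G182R, against 25.5, 29.1, 21.7 and 18.6% in Col3a1+/+. The values met at 29.1%, where Col3a1+/+ replicate 2 lay just above the lowest Col3a1+/G182R library. The difference of 6.90 percentage points did not pass its test (exact permutation p = 0.0857, adjusted 0.229).

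The reading of Kcnma1, the BK channel pore, depended on transcript length. The gene (ENSMUSG00000063142) lies on the minus strand of chromosome 14, from 23289431 to 24014491, and has 38 annotated transcripts of 447 to 12094 bases. In normalized counts it had 62.1, 52.3 and 49.6 CPM in Col3a1+/G182R, against 54.5, 66.2, 47.1 and 30.8 CPM in Col3a1+/+. The genotypes overlapped, with Col3a1+/+ replicate 4 lowest and replicate 2 highest, and the log2 fold change was 0.14 (SE 0.223, edgeR adjusted p = 0.743). Without Col3a1+/+ replicate 4 it was -0.042.

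In TPM the same gene had 12.2, 11.3 and 10.8 in Col3a1+/G182R, against 9.71, 8.85, 6.85 and 4.16 in Col3a1+/+. Here all 3 Col3a1+/G182R libraries lay above all 4 Col3a1+/+ libraries. Among the 10 channel genes, 2 (Abcc9 and Kcnma1) were separated upward in this way in TPM and none downward, where 9.54% of all genes tested were separated upward and 9.32% downward. The estimated transcript length of Kcnma1, RSEM's mean over isoforms weighted by their estimated shares, was 7191, 6450 and 7098 bases in Col3a1+/G182R, against 8400, 10126, 9132 and 10580 bases in Col3a1+/+. The groups did not overlap, and the mean in Col3a1+/G182R was 72.3% of that in Col3a1+/+ (p = 0.0571 in a two-sided exact permutation test, adjusted to 0.257 for the 9 genes with more than 1 transcript length). With effective length as an offset in edgeR the log2 fold change was 0.60 (SE 0.253, unadjusted p = 0.0400, adjusted p = 0.220). An unadjusted p under 0.05 on the higher side was then reached by 2 of the 10 genes (Abcc9 and Kcnma1), and by 9.73% of all genes.

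**Figure D2:**
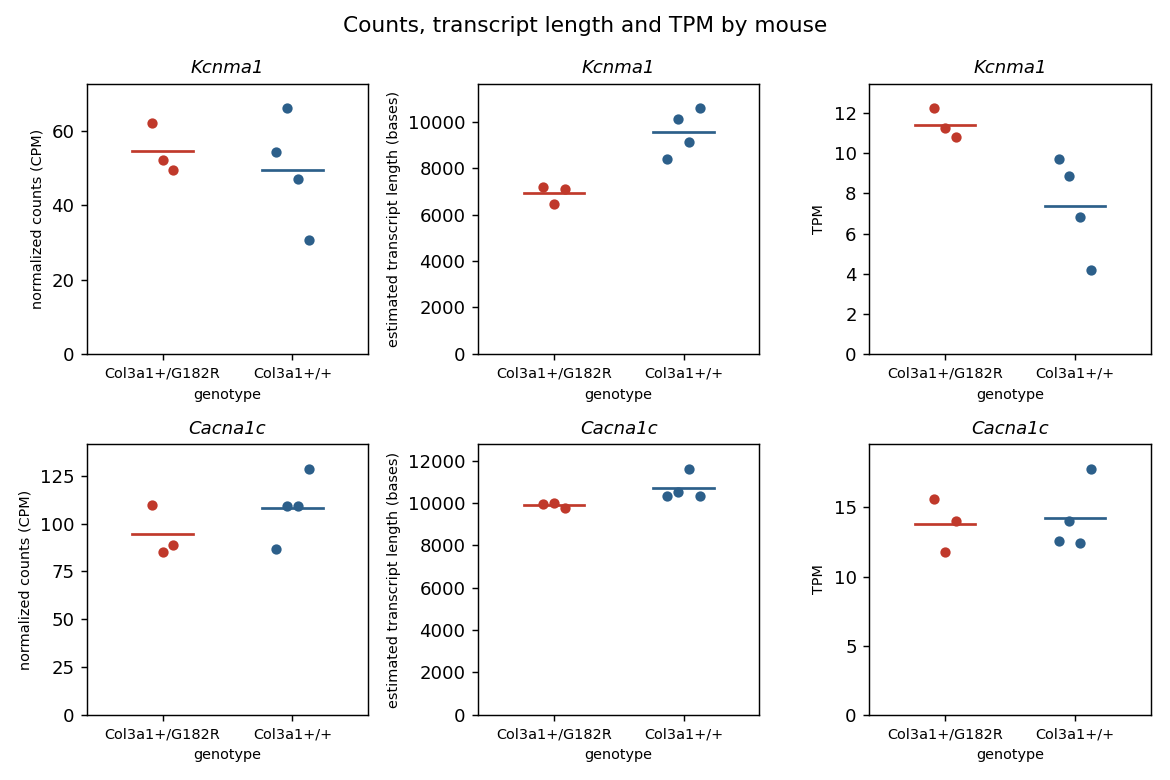
Normalized counts (CPM), estimated transcript length (bases) and TPM of Kcnma1 (top row) and Cacna1c (bottom row) in each library, all axes starting at 0, with a bar at the mean of each genotype (red, Col3a1+/G182R; blue, Col3a1+/+). Kcnma1 overlaps between genotypes in CPM and does not in length (6450 to 7191 bases against 8400 to 10580) or TPM, while Cacna1c is separated in length only.

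Transcript length also separated the genotypes for Cacna1c. Its estimate was 9933, 9974 and 9739 bases in Col3a1+/G182R, against 10314, 10515, 11606 and 10349 bases in Col3a1+/+. All Col3a1+/G182R libraries were below all Col3a1+/+ libraries, with a difference in means of -814 bases, or -511 bases without Col3a1+/+ replicate 3. The test was that of Kcnma1, with the same exact permutation p = 0.0571 and adjusted 0.257. So 2 of 9 genes were separated downward in length, where 7.43% of all genes with more than 1 length were. None was separated upward, where 9.32% of all genes were, and the other 7 overlapped. For Abcc9, for instance, the length was 7270 to 7297 bases in Col3a1+/G182R and 7273 to 7311 bases in Col3a1+/+, and for Kcnj8 it was 2384 to 2405 bases in Col3a1+/G182R and 2332 to 2403 bases in Col3a1+/+. Kcnmb1 has 1 annotated transcript and therefore 1 length.

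Kcnmb1 (ENSMUSG00000020155; chromosome 11, 33963013 to 33973641, plus strand) encodes the smooth muscle β subunit that raises the calcium sensitivity of the BK channel. Its TPM was 106.0, 98.1 and 105.1 in Col3a1+/G182R, against 119.6, 101.7, 96.0 and 73.8 in Col3a1+/+. The 3 Col3a1+/G182R values lay inside the span of the controls, at a log2 fold change of 0.034 (SE 0.159, edgeR adjusted p = 0.916). Kcnmb1 outnumbered its pore in each library, by 8.65-, 8.71- and 9.73-fold in TPM in Col3a1+/G182R and by 12.3-, 11.5-, 14.02- and 17.7-fold in Col3a1+/+. On the log2 scale this ratio was 3.17 ± 0.0946 in Col3a1+/G182R (SD, n = 3) and 3.78 ± 0.276 in Col3a1+/+ (SD, n = 4), with no overlap. The exact permutation p was 0.0286, the smallest that 35 splits of 7 libraries allow, and 0.171 after adjustment over 6 ratios and shares. From CPM in place of TPM, which leaves the Kcnma1 length out, the difference in log2 ratio was -0.13 instead of -0.60.

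**Figure D3:**
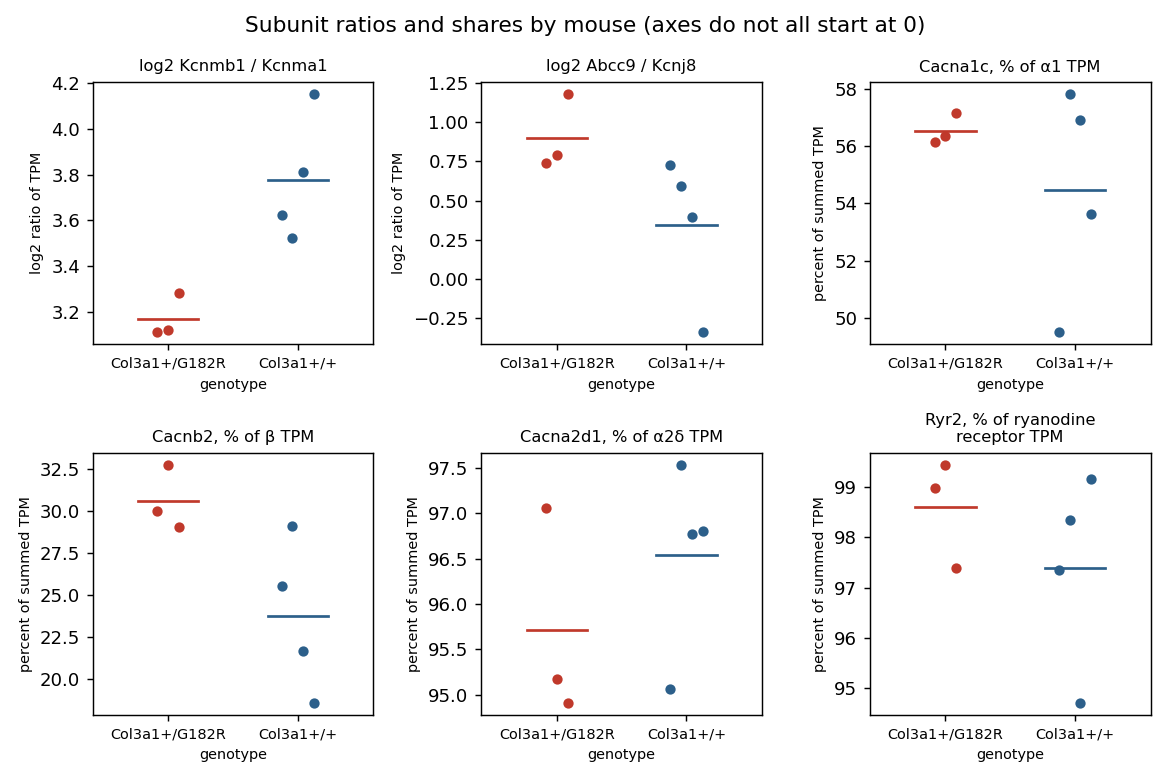
Log2 ratios of TPM (first 2 panels) and percent of summed TPM (4 panels) in each library, with a bar at the mean of each genotype (red, Col3a1+/G182R; blue, Col3a1+/+); the axes do not all start at 0. The genotypes are separated for Kcnmb1 over Kcnma1 and for Abcc9 over Kcnj8, and no measure passes its adjusted test (lowest adjusted p 0.171).

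The subunits of the vascular KATP channel sit close together, on the minus strand of chromosome 6: Kcnj8 (ENSMUSG00000030247), from 142564837 to 142571614, and Abcc9 (ENSMUSG00000030249), from 142587862 to 142702315. The bases upstream of each are shown because these neighbouring genes build 1 channel. Of the pair, only Abcc9 was separated between genotypes, and neither gene passed the threshold. They are from RefSeq on build GRCm38.p6, given 5′ to 3′ on the genes' own strand and cut where the first annotated exon begins, at chr6:142702316-142702524 for Abcc9 and chr6:142571615-142571864 for Kcnj8. Capitals mark a GC box (GGGCGG, either strand) or an E box (CANNTG, either strand).
Abcc9: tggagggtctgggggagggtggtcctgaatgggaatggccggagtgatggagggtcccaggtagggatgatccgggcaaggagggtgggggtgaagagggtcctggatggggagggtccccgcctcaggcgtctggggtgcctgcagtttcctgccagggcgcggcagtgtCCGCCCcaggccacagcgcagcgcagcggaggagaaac
Kcnj8: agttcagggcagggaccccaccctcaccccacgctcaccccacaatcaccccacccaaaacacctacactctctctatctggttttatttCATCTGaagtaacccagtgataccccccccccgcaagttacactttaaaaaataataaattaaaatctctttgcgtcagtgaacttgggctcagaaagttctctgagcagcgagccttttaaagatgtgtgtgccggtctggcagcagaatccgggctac
The Abcc9 stretch of 209 bases has 68.4% G and C, 10 CpG pairs and 1 GC box, and the Kcnj8 stretch of 250 bases has 49.2% G and C, 6 CpG pairs and 1 E box. Neither holds a TATA box (TATAAA, either strand). Of all 32851 upstream stretches of 250 bases in the RefSeq table, 32.7% hold a GC box, 66.2% an E box and 12.4% a TATA box. These matches describe the letters only.

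On normalized counts, Abcc9 had the largest log2 fold change of the 10 genes, whereas with effective length as an offset that of Kcnma1 was larger. Its normalized counts were 283, 257 and 245 CPM in Col3a1+/G182R, against 222, 217, 177 and 157 CPM in Col3a1+/+. All 3 Col3a1+/G182R libraries lay above all 4 Col3a1+/+ libraries, the sole such case among the 10 genes in CPM, where 10.1% of all genes tested were separated upward. The TPM were separated too, at 55.2, 48.8 and 52.0 in Col3a1+/G182R, against 45.6, 40.6, 32.3 and 30.9 in Col3a1+/+. The log2 fold change was 0.44 (SE 0.148, a 1.36-fold higher level), with an unadjusted edgeR p of 0.0148 and an adjusted p of 0.176. It stayed between 0.34 and 0.51 when each library was left out in turn, and the adjusted p ran from 0.0654 with library quality weights to 0.430 without Col3a1+/G182R replicate 2.

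Kcnj8, the pore of the same channel, did not share this separation. Its TPM was 33.1, 28.3 and 23.0 in Col3a1+/G182R, against 27.5, 26.8, 24.5 and 39.1 in Col3a1+/+. The lowest library was Col3a1+/G182R replicate 3 and the highest Col3a1+/+ replicate 4, and the genotypes overlapped. The log2 fold change was -0.079 (SE 0.188, edgeR adjusted p = 0.830). The ratio of Abcc9 to Kcnj8 was 1.67, 1.73 and 2.26 in Col3a1+/G182R, against 1.66, 1.51, 1.32 and 0.791 in Col3a1+/+. The ratios did not overlap, but the lowest Col3a1+/G182R and the highest Col3a1+/+ value nearly touched, and the difference of 0.56 on the log2 scale did not pass its test (exact permutation p = 0.114, adjusted 0.229). It was 0.33 without Col3a1+/+ replicate 4. Genes for pericytes, a cell type known to carry this channel, summed to 352 to 543 TPM over 5 genes in Col3a1+/G182R and 370 to 470 TPM in Col3a1+/+. Of the 5, 3 were measured higher and 2 lower, with log2 fold changes of -0.58 for Cspg4 (edgeR adjusted p = 0.146) and 0.45 for Rgs5 (edgeR adjusted p = 0.247). DESeq2 called 1 of the 5, where it called 4.52% of the genes it tested. The part of pericytes in the KATP values was not tested.

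Ryr2 (ENSMUSG00000021313; chromosome 13, 11553102 to 12106945, minus strand) encodes the ryanodine receptor of heart and arterial smooth muscle. Its TPM was 10.7, 12.4 and 9.71 in Col3a1+/G182R, against 12.5, 11.3, 6.45 and 6.96 in Col3a1+/+. In TPM the Col3a1+/G182R libraries lay together, and the Col3a1+/+ libraries split into replicates 1 and 2 above and replicates 3 and 4 below. The estimated transcript length was 8113, 9297, 11367 and 10838 bases in Col3a1+/+ replicates 1 to 4. In CPM, Col3a1+/G182R had 73.5, 63.4 and 57.3, against 67.6, 77.3, 55.4 and 52.8 in Col3a1+/+. The log2 fold change of the counts was 0.032 (SE 0.160, edgeR adjusted p = 0.918), and 0.21 with effective length as an offset (edgeR adjusted p = 0.619). Replicates 1 and 2 were also the Col3a1+/+ libraries with the highest Myh6 (16.2 and 12.8 TPM). The Col3a1+/G182R libraries had these Ryr2 values with Myh6 at 0.01 to 0.93 TPM. For Cacna1c, Col3a1+/+ replicate 1 was the lowest control in CPM (86.9). Replicate 4, with the least Myh6 of the controls (1.67 TPM), was the highest (128.7). In TPM, Cacna1c was lowest in Col3a1+/+ replicate 3 (12.44), just below replicate 1 (12.59), and again highest in replicate 4 (17.79). Heart muscle expresses Ryr2 and Cacna1c too, and a part of cardiac muscle RNA in their values was not tested. Ryr2 held 98.6 ± 1.07% of the TPM of the 3 ryanodine receptor genes in Col3a1+/G182R and 97.4 ± 1.93% in Col3a1+/+ (exact permutation p = 0.457, adjusted 0.457).

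**Figure D4:**
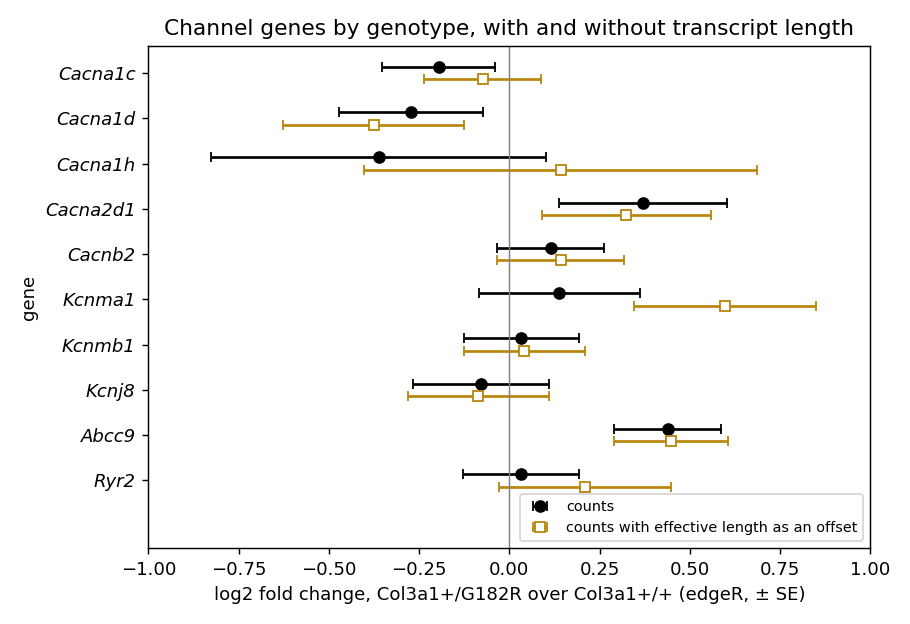
Log2 fold change of each channel gene, Col3a1+/G182R over Col3a1+/+ (x axis), with its standard error, from edgeR on the counts (black circles) and with effective length as an offset (open squares). Kcnma1 moves from 0.14 to 0.60 with the offset and Abcc9 stays at 0.44 and 0.45.

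A library of the controls marked the ends of the range for every channel gene. In CPM, Col3a1+/+ replicate 4 was the lowest of the 7 libraries for 6 genes (Cacna2d1, Cacnb2, Kcnma1, Kcnmb1, Abcc9 and Ryr2) and the highest for the other 4 (Cacna1c, Cacna1d, Cacna1h and Kcnj8). These are the same 6 genes that were measured higher in Col3a1+/G182R and the same 4 that were measured lower. An extreme control value moves the mean of its group the same way, so these groupings are not independent. Over all genes tested, this library was at an end of the range for 56.1%. It was at an end for 10 of 10 channel genes, against 3 of 10 for the next library (Col3a1+/G182R replicate 1, 21.5% of all genes). Over all genes the next library was Col3a1+/G182R replicate 3 (34.3%), at an end for 2 of the 10. Col3a1+/+ replicate 4 also had the fewest counts and the lowest sum of smooth muscle markers, and their part in the channel values was not tested. Without it, the log2 fold changes of 5 genes (Cacna1h, Kcnma1, Kcnmb1, Kcnj8 and Ryr2) turned sign, with values between -0.096 and 0.053.

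The genes with the most alike pattern over the 7 libraries were found as those with the smallest root mean square difference in log2 CPM after centring, among 14207 genes. For Abcc9 they were Zeb1 (0.0369), Gtf2b (0.0507) and Ubb (0.0539). For Kcnma1 they were Tm4sf1 (0.0508), Haus2 (0.0696) and Fgf14 (0.0745), and for Cacna1c Ip6k1 (0.0469), Tsc1 (0.0538) and Ncoa3 (0.0541). For Ryr2 the list held another channel gene, Cacnb2 (0.0645), after Bace1 (0.0414) and 2810021J22Rik (0.0512), and Kcnmb1 was nearest to Sertad2 (0.0392). The nearest gene to Cacna1h was Tbx2, at 0.201. These differences are not scaled to a gene's spread, and Cacna1h had the largest SD of the channel genes (0.538).

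Around these 10 genes, 8 lists held 177 further genes of calcium and potassium handling, of which 176 were matched in the files and 100 had enough counts for a test. None of the 100 was called by edgeR or DESeq2. An unadjusted edgeR p under 0.05 was reached by 4 on the higher and 6 on the lower side, 10 of 100 in all, where 20.4% of all genes tested reached it. Measured values were higher for 48 and lower for 52.

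Among the other voltage-gated calcium channel subunits 10 of 21 were tested, with a median log2 fold change of -0.16. The β subunit genes Cacnb3 (-0.34, unadjusted p = 0.0371, edgeR adjusted p = 0.220) and Cacnb1 (-0.47, adjusted p = 0.267) had the smallest p-values, followed by Cacna2d4 and Cacnb4. Cacnb3 had 29.0, 22.9 and 23.9 TPM in Col3a1+/G182R, against 30.6, 29.7, 28.0 and 37.7 TPM in Col3a1+/+, where 1 Col3a1+/G182R library reached into the range of the controls.

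Other potassium channels gave as few differences. Of the other calcium-activated subunits 7 of 13 were tested, led by Kcnn3, a small-conductance channel of endothelium and nerve, at 0.85 (edgeR adjusted p = 0.259) and a level of at most 0.62 TPM, followed by Kcnt2, Kcnn1 and Kcnt1. Of the other inward rectifier and KATP subunits 5 of 15 were tested, and Abcc8, Kcnj12, Kcnj11 and Kcnj2 all had adjusted p-values above 0.69. The alternative KATP pore Kcnj11 had 3.21 TPM in Col3a1+/G182R and 3.18 TPM in Col3a1+/+, far below Kcnj8, and the alternative receptor Abcc8 0.913 TPM in Col3a1+/G182R and 0.795 TPM in Col3a1+/+. Of 52 voltage-gated potassium channel subunits 22 were tested. Kcnip1 (-0.87) and Kcne4 (0.31) had unadjusted p-values of 0.0392 and 0.0428 and edgeR adjusted ones of 0.224 and 0.231. The cytosolic β subunit Kcnab1 was the most abundant of them, with 176, 173 and 132 TPM in Col3a1+/G182R, against 150, 124, 77.5 and 50.0 TPM in Col3a1+/+, a log2 fold change of 0.52 (adjusted p = 0.319). All 4 two-pore channel genes tested (Kcnk6, Kcnk1, Kcnk5 and Kcnk3) were measured higher, with a median of 0.19 and adjusted p-values of 0.657 to 0.901.

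Genes of calcium release, uptake and extrusion (25 of 30 tested) had a median log2 fold change of -0.0012. Atp2b1, a plasma membrane calcium pump, was at 0.47 (SE 0.154, unadjusted p = 0.0126, edgeR adjusted p = 0.173). Its TPM was 13.2, 16.1 and 20.3 in Col3a1+/G182R, against 16.6, 12.0, 8.42 and 11.3 in Col3a1+/+, which overlap. Its CPM did not, where 10.1% of all genes tested were separated upward. Next were Asph (0.40), Fkbp1a (-0.21), which encodes a ryanodine receptor binding protein, and the inositol trisphosphate receptor gene Itpr1 (0.27), with adjusted p-values of 0.307 to 0.367.

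The other cation and chloride channels of smooth muscle (15 of 18 tested) had a median of -0.042. P2rx1, an ATP-gated cation channel of sympathetic transmission, had 24.6, 28.6 and 34.8 TPM in Col3a1+/G182R, against 46.4, 48.8, 41.9 and 42.3 TPM in Col3a1+/+. The genotypes did not overlap, where 9.32% of all genes tested were separated downward in TPM. The log2 fold change was -0.50 (SE 0.148, edgeR adjusted p = 0.165). P2rx1 passed the threshold in limma-voom with library quality weights (adjusted p = 0.0462), a setting that called 546 genes over the whole table. It also passed in DESeq2 with effective lengths (adjusted p = 0.00366), which called 851 genes and was chosen after seeing the data. Clcn2 (-0.77, adjusted p = 0.178), a chloride channel, and Trpm4 (-0.49, adjusted p = 0.190), a calcium-activated cation channel, passed with DESeq2 and effective lengths alone (adjusted p = 0.0246 and 0.0158). Ano1, a calcium-activated chloride channel, was at -0.31 (adjusted p = 0.301).

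Of 14 channel regulators 12 were tested. Gem, a small GTPase that inhibits high-voltage-activated calcium channels by binding their β subunit, had 52.3, 32.7 and 45.2 TPM in Col3a1+/G182R, against 36.0, 27.1, 22.5 and 18.1 TPM in Col3a1+/+. These overlapped, with a log2 fold change of 0.70 (SE 0.221, unadjusted p = 0.0104, edgeR adjusted p = 0.170). Ppp3ca, a catalytic subunit of calcineurin, was at 0.31 (adjusted p = 0.223), and Prkca and Camk2g, both protein kinases, at 0.37 and -0.29 (adjusted p = 0.303 and 0.307).

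**Figure D5:**
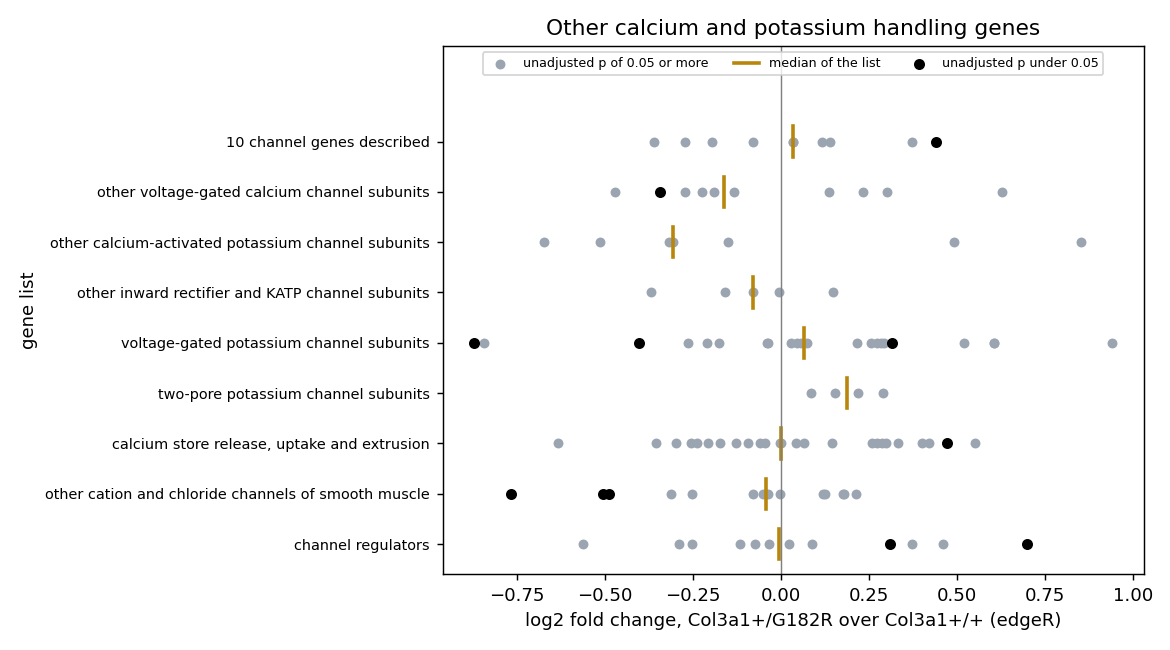
Log2 fold change, Col3a1+/G182R over Col3a1+/+ (x axis, edgeR), of the 10 channel genes and of the tested genes of 8 further lists, with points in black for an unadjusted p under 0.05, grey otherwise, and a bar at the median of each list. Most points lie within 0.5 of 0 on either side, and the list medians run from -0.31 to 0.19.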

How the data were processed

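Aortic RNA libraries (TruSeq Stranded mRNA, 1 per mouse) were compared between 3 Col3a1+/G182R and 4 Col3a1+/+ mice. The authors, by the submitters' processing notes, aligned reads to GRCm38 with STAR 2.7.6a and made the deposited expected counts, TPM and lengths with RSEM 1.3.1, which shares reads that match several genes or isoforms among them. FPKM values were not used. The annotation release is not given in the sources used here. The paper's methods name featureCounts, DESeq2 and limma instead. Expected counts were rounded, filtered with filterByExpr (minimum count 10), normalized with TMM and tested with edgeR 4.0.16 in R 4.3.3 (quasi-likelihood, two-sided, genotype as the only term), with Benjamini-Hochberg adjustment over 15688 genes and a threshold of 0.05. CPM are after TMM. Ratios and shares of TPM and transcript lengths were compared by exact permutation tests (scipy 1.17.1), whose smallest p with 3 and 4 mice is 0.0286. DESeq2 1.42.0, limma 3.58.1 and the other alternatives were run beside the test, and the code was tested on simulated data. There edgeR recovered 1.49% of 1.5-fold and 53.7% of 2-fold changes, and DESeq2 17.9% and 61.2%. A channel gene that was not called may therefore still differ by such amounts. Symbols and positions are from GENCODE M21 on GRCm38 (55141 of 55487 identifiers matched), and upstream sequences from RefSeq.

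The genes and lists were chosen with earlier results of these data known. All 10 channel genes are described, with up to 4 tested genes of smallest unadjusted p per list, and up to 3 genes of most alike pattern among those averaging 1 CPM or more whose SD was at least 0.5 times that of the channel gene (0.5 CPM was added before the logarithm). Genes that a small count turns on were named too. 1 gene that this rule picks is not reported here. Whether equal replicate numbers pair the mice is not given, and they were not taken as pairs.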

Additional observations from a re-analysis of the deposited data

Results flagged for a closer look

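Among 35 sets of 4 Col3a1+/+ values (CPM, TPM, lengths, ratios and shares of the channel genes), 1 had a library far from the other 3. The estimated Cacna1c transcript length in Col3a1+/+ replicate 3 was 11606 bases, and its gap to the nearest of the others was 0.845 of the whole range, over Dixon's critical value for 4 samples. Chance alone flags about 1 in 20 such sets. The difference between genotypes in this length was -814 bases with that library and -511 bases without it.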

How the results depend on the processing

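No channel gene was called under any of the 16 alternatives, and 142 of 160 alternative log2 fold changes kept their sign (the lowest adjusted p was 0.0654). Signs turned with effective length as an offset for Cacna1h (0.14), and in DESeq2 with that offset, chosen after seeing the data, likewise (0.17). With library quality weights Kcnmb1 was at -0.024 and Kcnj8 at 0.031. Leaving out each library in turn gave -0.67 to 0.026 for Cacna1h, -0.042 to 0.31 for Kcnma1, -0.096 to 0.11 for Kcnmb1, -0.24 to 0.074 for Kcnj8 and -0.080 to 0.14 for Ryr2, and signs turned without Col3a1+/+ replicate 4 for all 5, without Col3a1+/+ replicate 3 for Ryr2, without Col3a1+/G182R replicate 1 for Kcnmb1 and Ryr2, and without Col3a1+/G182R replicate 3 for Kcnj8. With a replicate block, Cacna1h was at 0.088, Kcnma1 at -0.026, Kcnmb1 at -0.087, Kcnj8 at 0.041 and Ryr2 at -0.040. From CPM in place of TPM, the share of Cacna2d1 differed by 0.0283 and that of Ryr2 by -0.0509 percentage points. The causes were not tested.

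Over the whole table edgeR called 6 genes, DESeq2 667, limma-voom 11, limma-voom with library quality weights 546, edgeR without a low-count filter 353, with at least 10 counts in every library 0, with the length offset 14, and DESeq2 with that offset 851. Leaving out 1 library gave 0 to 183. The replicate block gave 46 calls. Correlations between libraries of the same number were -0.0313, 0.0389 and 0.113, too few to decide whether the mice were paired. The numbers were not taken as pairs, and Col3a1+/+ replicate 4 has no partner in the block. Of the 100 further genes 1 was called with library quality weights and 3 with DESeq2 and the offset, and 0 by edgeR. The number of mice and the low counts of Cacna1h limit these values.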

Other observations

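Some genes of the wider lists stood out by their level and were chosen after their values were seen. Casq1, the calsequestrin gene known from skeletal muscle, had 224, 206 and 286 TPM in Col3a1+/G182R, against 448, 267, 378 and 289 TPM in Col3a1+/+, while Casq2, the form known from heart and smooth muscle, averaged 1.70 TPM in Col3a1+/G182R and 2.47 TPM in Col3a1+/+. Of the 9 skeletal muscle markers, 4 had enough counts for a test, and all 4 were measured lower in Col3a1+/G182R. Among them, Tnnt3 averaged 5.19 TPM in Col3a1+/G182R and 8.01 TPM in Col3a1+/+. Mylpf averaged 2.57 TPM in Col3a1+/G182R and 5.81 TPM in Col3a1+/+, and Ckm 2.78 TPM in Col3a1+/G182R and 3.96 TPM in Col3a1+/+. Myh4 was at 0 in the same 7 libraries. Acta1, Myh1 and Myh2 averaged 0.427, 0.0367 and 0.0533 TPM in Col3a1+/G182R, and 0.28, 0.0225 and 0.0225 TPM in Col3a1+/+. Tnni2 averaged 0.34 TPM in Col3a1+/G182R and 0.593 TPM in Col3a1+/+. The part of these markers in the Casq1 values was not tested. Cacng7, a γ subunit gene of the calcium channel family known from brain, averaged 15.9 TPM in Col3a1+/G182R and 13.2 TPM in Col3a1+/+, about the level of Cacna1c. Neither Casq1 (log2 fold change -0.30, unadjusted p = 0.208, edgeR) nor Cacng7 (0.14, unadjusted p = 0.553, edgeR) differed past the threshold.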
